A study of Mus musculus with 18 samples.

Results

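Naive CD4 T cells of mice that over-express the whole miR-23-27-24 microRNA cluster were set against those of mice that over-express miR-23 alone, a pair of groups that share miR-23 and differ in miR-27 and miR-24. Each group had 3 libraries, 6 of the 18 in the series. The members are the gene rows with at least 1 RPKM (reads per kilobase of transcript, scaled to the size of the library) in at least 3 of these 6 libraries: 10544 of 23951 unique gene symbols. All mice were C57BL/6, and the cells were sorted as naive CD4+CD25- cells. Cluster Tg mice carried a transgene of the entire cluster and miR-23 Tg mice one of miR-23, both specific to T cells. Values of 4 further genotypes with 3 libraries each are given beside them: transgenics of a single member (miR-24 Tg, miR-27 Tg), DKO mice whose T cells lack the a as well as the b copy, and wild-type (WT) mice. The genotype field of the WT samples reads "WT Tg", but no transgene is named for them. The sex of the mice is not stated, and RNAs of the sex chromosomes are given below. The promoter of the transgenes, the Cre driver of DKO, the number of founder lines, age and the number of mice per library are unknown here. The p-values therefore cover the variation among these libraries, which may in part be technical.

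MicroRNAs guide the silencing machinery to matching words in the 3′ UTRs of mRNAs, chiefly through the seed, bases 2 to 8, and lower the stability and translation of those mRNAs. The mouse cluster exists as copy a on chromosome 8 and copy b on chromosome 13, each made as 1 precursor that yields miR-23, miR-27 and miR-24. In T cells the family is known for restraining helper cell differentiation and cytokine production, with single members acting on different target genes.

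The mature sequences (RefSeq, GRCm38.p6) show what the groups differ in: miR-23 is shared by both, and miR-27 and miR-24 are the additions. Capitals mark the seed. miR-27a and miR-27b have the same seed and differ in a single base near the 3′ end, and both copies make the same miR-24.
miR-23a-3p: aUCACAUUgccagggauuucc
miR-27a-3p: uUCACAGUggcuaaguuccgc
miR-27b-3p: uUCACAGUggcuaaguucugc
miR-24-3p: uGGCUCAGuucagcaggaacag
The seeds of miR-23 and miR-27 are identical at 6 of 7 positions, including the first 5, while neither shares a base at the same position with the miR-24 seed. A 3′ UTR word for miR-27 (ACTGTGA) is therefore close to, but not the same as, the word for miR-23 (AATGTGA), and the word for miR-24 is CTGAGCC.

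The hairpin rows matched the labels of both groups. The Mir23a hairpin (chr8:84208518-84208592, GRCm38.p6, plus strand) had 176364, 64695 and 32829 in cluster Tg, against 74236, 69232 and 64024 RPKM in miR-23 Tg. WT libraries had 279.5, 82.8 and 0 RPKM. The groups overlapped, with cluster Tg on both sides of miR-23 Tg, and the log2 difference of 0.062 (cluster Tg minus miR-23 Tg, on log2(RPKM + 1), SE 1.68) did not pass the test (limma, adjusted p = 0.982). The Mir27a hairpin (chr8:84208672-84208758) had 172309, 67414 and 35501 in cluster Tg, against 235, 170.1 and 155 RPKM in miR-23 Tg. Its lowest cluster Tg value stood far above the highest miR-23 Tg value, with a log2 difference of 8.65 (SE 0.60, adjusted p = 0.00125, limma). The Mir24-2 hairpin (chr8:84208815-84208921) had 70491, 26689 and 16951 in cluster Tg, against 139.8, 0 and 61.4 RPKM in miR-23 Tg, a log2 difference of 10.59 (SE 1.82, adjusted p = 0.0117), which depends on the pseudocount because 1 miR-23 Tg library is listed at 0. In cluster Tg the Mir27a value was 0.977 to 1.08 times that of Mir23a in the same library, and Mir24-2 was 0.3997 to 0.516 times, so the 3 hairpins kept nearly the same proportion while the level of Mir23a differed 5.37-fold between replicates 1 and 3. In miR-23 Tg both ratios were at most 0.00317. The rows of copy b (Mir23b, Mir27b, Mir24-1) held no value of 1 RPKM or more in any of the 6 libraries. RPKM of a hairpin row comes from fragments of longer RNA as well, and is not a measure of mature microRNA.

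**Figure D1:**
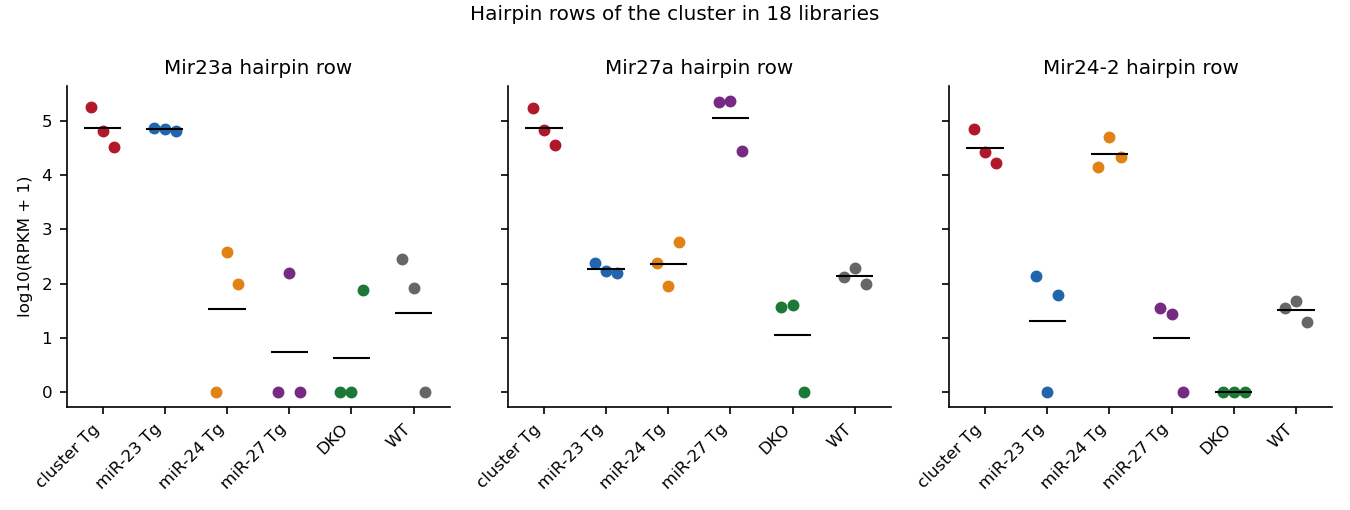
Values of the Mir23a, Mir27a and Mir24-2 hairpin rows in the 18 libraries, as log10(RPKM + 1), by genotype; each point is a library and the line is the mean of 3. Cluster Tg libraries are high in all 3 panels and miR-23 Tg libraries in the Mir23a panel, where both groups overlap.

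Some properties of the libraries bear on every result. On the second principal component of all 18 libraries (15.6% of the variance), libraries of miR-27 Tg, cluster Tg and miR-24 Tg lay between 4.96 and 40.8 and miR-23 Tg, DKO and WT libraries between -25.8 and -14.6. The comparison of cluster Tg with miR-23 Tg crosses this divide. Whether the sets were prepared apart is unknown here, and such a batch and the genotype cannot be told apart. Among the 6 libraries, the first component (41.4%) separated the groups and the second (19.9%) set miR-23 Tg replicate 1 (35.4) apart from the other miR-23 Tg columns (-22.8 and -22.1). Those columns carry the same header, so they have no replicate number of their own and are called columns 3 and 4. No other 2 libraries of a genotype were closer: their median absolute log2 ratio was 0.0706 for genes of 50 to 200 RPKM against 0.103 to 1.14 in the other pairs. No gene with at least 1 RPKM in both had the same value in the 2 columns (0 genes). Relative depth, from the smallest values, was 1.30 to 1.47 times that of WT replicate 1 in cluster Tg and 1.11 to 1.28 times in miR-23 Tg. Absolute depth is unknown. Xist, the RNA of the inactive X, had 96.95, 45.8 and 0.0449 in cluster Tg, against 45.8, 57.7 and 59.1 RPKM in miR-23 Tg. Y-linked Ddx3y had 0.00719, 20.1 and 43.4 in cluster Tg, against 0.0268, 0.0155 and 0.00884 RPKM in miR-23 Tg. The cluster Tg libraries thus differ among themselves in both and 1 of them holds both RNAs. Among the 6 libraries, Ddx3y reached 1 RPKM only in cluster Tg replicates 2 and 3. Sex and genotype are therefore in part confounded in this comparison.

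Of the 10544 genes, 2610 differed between cluster Tg and miR-23 Tg at an adjusted p under 0.05 (24.8%), 1420 of them higher in cluster Tg (13.5%) and 1190 lower (11.3%). The higher genes reached larger differences: with an absolute log2 difference of at least 1, 392 remained (3.72%), 314 higher and 78 lower. The median over all genes was -0.02 and the median SE 0.11. The 3 values of each group did not overlap in 2515 genes that were above in cluster Tg (23.9%) and 2704 that were below (25.6%). These shares are the background wherever a lack of overlap with miR-23 Tg is given for single genes below. The count of 2610 changed when a library was left out. It was 996 without column 4, 1239 without column 3, 1369, 1576 and 1691 without cluster Tg replicates 1, 2 and 3, and 2317 without miR-23 Tg replicate 1. With columns 3 and 4 averaged as 1 library it was 1139, of which 1129 were among the 2610. All 6 libraries reached 1 RPKM in 9766 genes, only the 3 cluster Tg libraries did in 176 and only the 3 miR-23 Tg libraries in 57, and genes of those last sets had to differ to be there. At the edge of the filter, Tspan6 was just inside with 1.0006 RPKM in the library that decides, and Gm14325 just outside with 0.99985 RPKM.

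Against WT, in a fit of 9 libraries on the same genes, cluster Tg differed in 2646 genes (25.1%), 1431 higher (13.6%) and 1215 lower (11.5%), while miR-23 Tg differed in 167 (1.58%), 84 higher (0.797%) and 83 lower (0.787%). Both comparisons share the WT libraries, so their values are set side by side for single genes and are not related to each other.

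**Figure D2:**
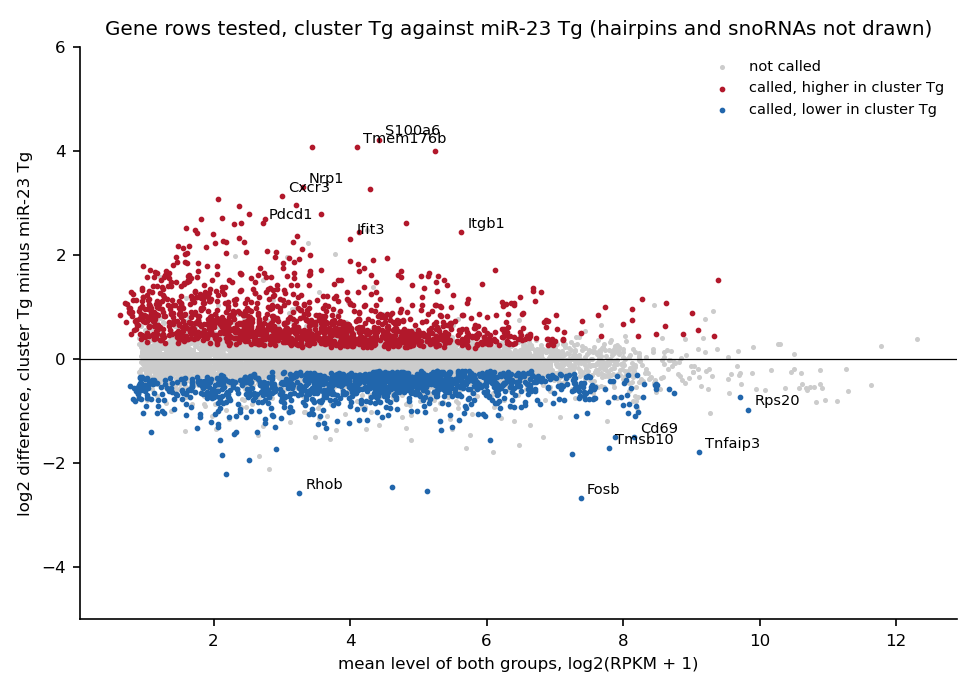
Log2 difference (cluster Tg minus miR-23 Tg) of the tested genes against their mean level in both groups, both on log2(RPKM + 1); red and blue points are called higher and lower in cluster Tg, and hairpin and small nucleolar RNA rows are not drawn. The largest differences are upward and belong to genes of low and middle level, and the labelled downward genes Fosb, Tnfaip3, Tmsb10 and Cd69 are abundant.

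The genes that stood highest in cluster Tg encode calcium-binding S100 proteins, surface receptors and effector molecules. S100a6, a small calcium-binding protein of memory T cells, had 147, 76.7 and 60.1 in cluster Tg, against 3.31, 4.605 and 3.501 RPKM in miR-23 Tg, with 5.39, 9.499 and 5.16 RPKM in WT. All 3 cluster Tg values lay above all values of the other groups named (log2 difference 4.22, SE 0.32, adjusted p = 0.00156, limma). S100a4, its neighbour in the same family, had 224, 141 and 92.3 in cluster Tg, against 5.37, 9.67 and 9.83 RPKM in miR-23 Tg (log2 difference 3.997, SE 0.36, adjusted p = 0.0021). Tmem176b, a membrane protein of the MS4A-like type, had 103, 52.7 and 56.4 in cluster Tg, against 2.67, 3.296 and 3.23 RPKM in miR-23 Tg (log2 difference 4.08, SE 0.26, adjusted p = 0.00121). Its genomic neighbour and partner Tmem176a had 67.5, 33.6 and 33.8 in cluster Tg, against 1.29, 1.72 and 1.78 RPKM in miR-23 Tg (log2 difference 4.07, SE 0.28, adjusted p = 0.00125). Both were also far from WT, where they had 3.602, 5.34 and 2.47 RPKM and 1.74, 2.46 and 2.32 RPKM. Nrp1, the semaphorin and VEGF co-receptor neuropilin-1, had 42.01, 24.8 and 24.7 in cluster Tg, against 2.19, 2.13 and 1.98 RPKM in miR-23 Tg (log2 difference 3.3, SE 0.21, adjusted p = 0.00121). WT had 2.197, 2.33 and 1.93 RPKM. Here miR-23 Tg and WT overlapped and the 3 cluster Tg libraries lay above both, but miR-27 Tg replicate 1 reached 27.2 RPKM, within the cluster Tg range.

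The other 10 of the 15 highest genes were Ly6c2, Cxcr3, 5830411N06Rik, Ccl5, Gpm6b, Gzmk, Nkg7, Axl, Plac8 and Anxa1. Cxcr3, the receptor that takes Th1 cells to inflamed tissue, had 30.99, 21.5 and 16.1 in cluster Tg, against 1.102, 2.15 and 1.76 RPKM in miR-23 Tg (log2 difference 3.13, SE 0.26, adjusted p = 0.00182). WT had 0.9099, 1.59 and 1.86 RPKM. Ccl5, a chemokine kept ready in memory T cells, had 42.4, 27.4 and 9.82 in cluster Tg, against 1.45, 1.996 and 2.88 RPKM in miR-23 Tg (log2 difference 2.96, SE 0.50, adjusted p = 0.011). Gzmk, a granzyme, had 18.9, 16.3 and 8.12 in cluster Tg, against 1.28, 1.23 and 0.867 RPKM in miR-23 Tg (log2 difference 2.79, SE 0.29, adjusted p = 0.00313). WT had 0.2996, 0.1997 and 0.246 RPKM. In these 3 genes cluster Tg replicate 1 was the highest cluster Tg library and replicate 3 the lowest. The hairpin rows and Xist have the same order and Ddx3y the reverse one, and whether any of these are linked was not tested. Gpm6b, a myelin-type membrane proteolipid, differed with less spread, at 14.5, 11.9 and 13.9 in cluster Tg, against 0.669, 1.04 and 0.905 RPKM in miR-23 Tg (log2 difference 2.95, SE 0.12, adjusted p = 0.000266). Anxa1, a phospholipid-binding annexin, averaged 8.71 ± 7.19 RPKM in cluster Tg and 0.264 ± 0.101 RPKM in miR-23 Tg (± SD, n = 3, here and below). The receptor tyrosine kinase Axl averaged 10.3 ± 4.04 RPKM in cluster Tg and 0.677 ± 0.2101 RPKM in miR-23 Tg. Ly6c2, whose near-identical neighbour Ly6c1 may share its reads, averaged 62.03 ± 34.96 RPKM in cluster Tg and 5.05 ± 1.67 RPKM in miR-23 Tg. Of the 15 genes, 13 stayed called in each of the 6 fits that left out 1 library. The exceptions were 5830411N06Rik (adjusted p of up to 0.0905) and Plac8 (up to 0.0844). 5830411N06Rik had 35.6, 4.61 and 3.23 in cluster Tg, against 0.128, 0.136 and 0.142 RPKM in miR-23 Tg.

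**Figure D3:**
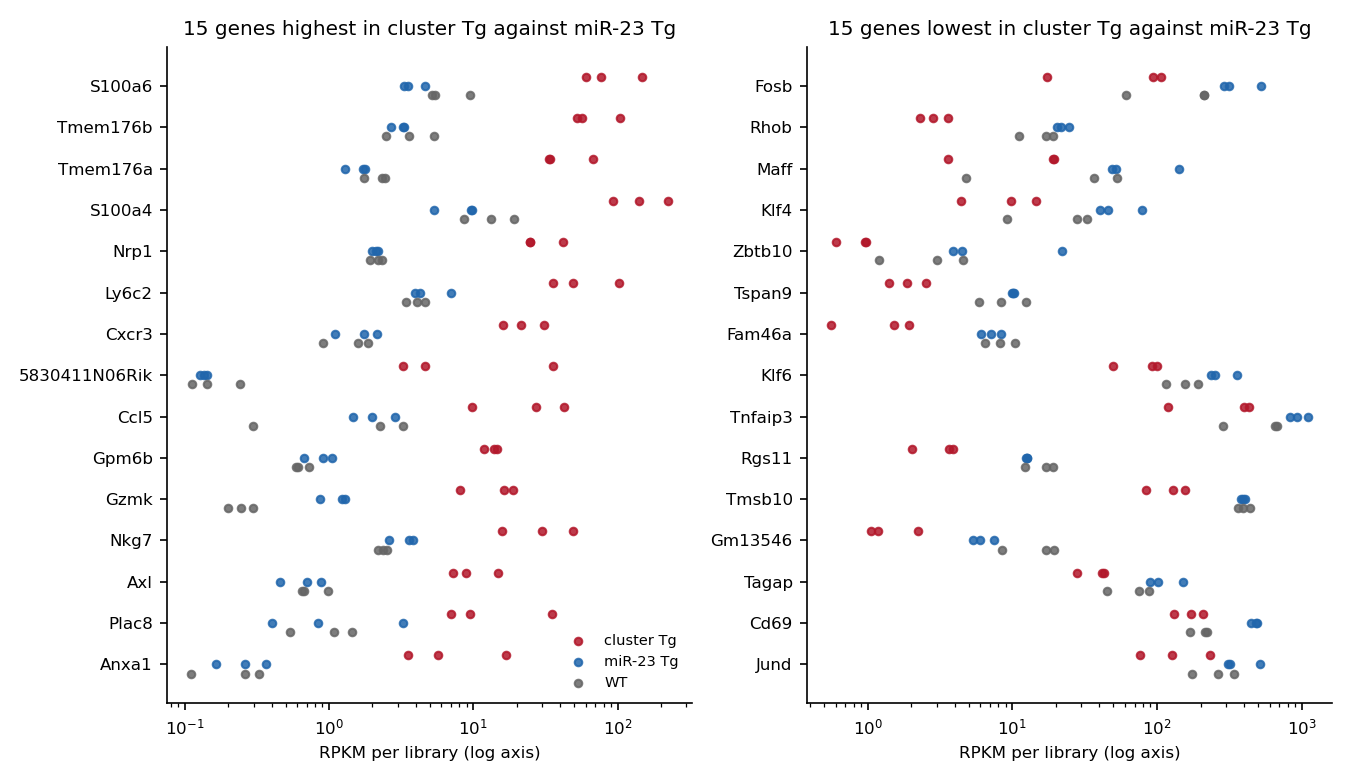
RPKM in each library (log axis) of the 15 genes with the highest and the 15 with the lowest log2 difference, for cluster Tg, miR-23 Tg and WT; each point is a library. On the left miR-23 Tg and WT lie close together and cluster Tg lies apart, while on the right the WT points of Fosb, Maff, Klf4 and Tnfaip3 spread towards those of cluster Tg.

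Effector and memory genes rose as a group. Of 35 tested members of the effector and memory list, 29 were called higher and 1 lower (82.9% and 2.86%, against 13.5% and 11.3% over all genes tested), with a median log2 difference of 1.35. Here and below, counts are of members that passed the filter (35 of 41 here, 655 of 803 over all lists), and genes that passed through their high group alone had to differ. The single lower member was Fasl, the death ligand of activated T cells, at 3.08, 3.38 and 3.696 in cluster Tg, against 7.31, 10.2 and 10.5 RPKM in miR-23 Tg (log2 difference -1.22, SE 0.14, adjusted p = 0.00399). Itgb1, the beta-1 integrin chain of memory cells, had 148, 99.7 and 98.7 in cluster Tg, against 18.7, 21.6 and 20 RPKM in miR-23 Tg (log2 difference 2.44, SE 0.17, adjusted p = 0.00125). WT had 20.99, 23.1 and 21.9 RPKM. Anxa2 averaged 69.1 ± 13.5 RPKM in cluster Tg and 10.4 ± 2.25 RPKM in miR-23 Tg (log2 difference 2.62, SE 0.19, adjusted p = 0.00147). The list of S100 proteins, annexins and galectins, which shares members with it, had 11 of 17 members higher (64.7%) and 0 lower, with a median of 0.96. Against WT the effector and memory list had 29 higher and 1 lower in cluster Tg (median 1.41) and 0 higher and 1 lower in miR-23 Tg (median 0.10).

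Genes of the Th1 programme were also higher, with 9 of 12 tested members called higher and 0 lower (75.0% higher against 13.5% over all genes) and a median of 1.43. The count was 6 without miR-23 Tg column 3, without column 4 and in the fit of all 18 libraries. Tnf had 41.7, 24.7 and 26.1 in cluster Tg, against 10.04, 7.95 and 7.79 RPKM in miR-23 Tg (log2 difference 1.699, SE 0.21, adjusted p = 0.00476). WT lay between with 17.5, 16.4 and 15.4 RPKM. Ifng, the defining Th1 cytokine, had 8.93, 4.902 and 2.45 in cluster Tg, against 0.633, 0.9597 and 0.899 RPKM in miR-23 Tg (log2 difference 1.69, SE 0.36, adjusted p = 0.0223), a call lost in 4 of the 6 fits that left out 1 library, with an adjusted p of up to 0.0656. Of the interleukin-18 receptor chains, Il18rap averaged 4.11 ± 2.56 RPKM in cluster Tg and 0.365 ± 0.129 RPKM in miR-23 Tg. Il18r1 averaged 67.01 ± 15.1 RPKM in cluster Tg and 21.4 ± 4.02 RPKM in miR-23 Tg. Cluster Tg and miR-23 Tg did not overlap in these 4 genes, as in the 23.9% of all genes tested that were above in cluster Tg without overlap. Tbx21, which encodes the Th1 master regulator T-bet, had 4.77, 3.48 and 2.06 in cluster Tg, against 0.608, 0.337 and 0.468 RPKM in miR-23 Tg (log2 difference 1.55, SE 0.23, adjusted p = 0.00822); it and Foxp3 were picked after their values were seen. Genes of the other helper lineages did not move together: Th2 genes had 3 higher and 2 lower of 11 (27.3% and 18.2%), and Th17 genes 3 higher and 1 lower of 9 (33.3% and 11.1%). Without miR-23 Tg column 4 the Th2 counts were 2 and 0 and the Th17 counts 2 and 0 (limma), and their medians (-0.03 and -0.02) changed sign in several other fits. Ccr4, a chemokine receptor of Th2 and regulatory cells, had 10.4, 8.27 and 7.997 in cluster Tg, against 1.46, 0.998 and 0.8198 RPKM in miR-23 Tg (log2 difference 2.24, SE 0.15, adjusted p = 0.00125). Ccr6, a receptor of Th17 cells, averaged 2.302 ± 0.678 RPKM in cluster Tg and 0.312 ± 0.0707 RPKM in miR-23 Tg (log2 difference 1.31, SE 0.17, adjusted p = 0.00547). The cytokine Il21 averaged 1.97 ± 0.133 RPKM in cluster Tg and 0.292 ± 0.00635 RPKM in miR-23 Tg (log2 difference 1.2, SE 0.087, adjusted p = 0.00142). Il17rb was higher (0.95) and Il6st and Ikzf1 were lower (-0.28 and -0.43) on the log2 scale, and these with Rora (0.81) lost their call without 1 or more single libraries.

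Of 39 tested genes of the type I interferon response, 31 were called higher and 0 lower (79.5% against 13.5% over all genes), with a median of 1.05. Ifit1, which binds foreign RNA caps, had 44.7, 40.3 and 49.03 in cluster Tg, against 10.1, 10.6 and 12.1 RPKM in miR-23 Tg (log2 difference 1.94, SE 0.10, adjusted p = 0.000714). WT had 14.6, 11.2 and 16.3 RPKM. Ifit3 had 42.4, 29.1 and 33.03 in cluster Tg, against 6.92, 5.27 and 6.25 RPKM in miR-23 Tg (log2 difference 2.32, SE 0.16, adjusted p = 0.00125). The antiviral GTPase Mx1 averaged 10.8 ± 4.28 RPKM in cluster Tg and 1.28 ± 0.4001 RPKM in miR-23 Tg (log2 difference 2.33, SE 0.26, adjusted p = 0.00352). Oasl2 averaged 29.9 ± 8.32 RPKM in cluster Tg and 7.22 ± 0.968 RPKM in miR-23 Tg (log2 difference 1.89, SE 0.19, adjusted p = 0.00301). In all 4 the cluster Tg libraries lay above every miR-23 Tg and WT library, and the miR-23 Tg mean lay under that of WT. Against WT, 30 of the 39 were higher in cluster Tg (median 0.95) and 0 were called in miR-23 Tg (median -0.14, limma, 9 libraries; 12 at an unadjusted p under 0.05). In the other genotypes Ifit1 averaged 19.7 ± 6.81 RPKM in miR-24 Tg, 69.1 ± 7.42 RPKM in miR-27 Tg and 26.6 ± 9.63 RPKM in DKO.

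Genes of regulatory and follicular helper T cells were higher too. Of 16 tested regulatory T cell genes 10 were higher and 0 lower (62.5% higher against 13.5% over all genes, median 0.68), and of 16 follicular helper genes 10 were higher and 1 lower (62.5% and 6.25%, median 0.87). In the fit of all 18 libraries the regulatory count was 6. Ikzf2, the transcription factor Helios, had 16.4, 9.47 and 7.68 in cluster Tg, against 1.25, 1.4998 and 1.64 RPKM in miR-23 Tg (log2 difference 2.24, SE 0.25, adjusted p = 0.00351). Foxp3, the lineage factor of regulatory T cells, had 5.01, 4.81 and 4.51 in cluster Tg, against 1.397, 1.84 and 1.601 RPKM in miR-23 Tg (log2 difference 1.15, SE 0.10, adjusted p = 0.00186). WT lay between with 2.96, 2.59 and 2.596 RPKM. The ectonucleotidase Entpd1 (CD39) averaged 1.74 ± 0.4196 RPKM in cluster Tg and 0.146 ± 0.0603 RPKM in miR-23 Tg. The actin-capping gene Capg averaged 69.1 ± 7.503 RPKM in cluster Tg and 28.7 ± 2.58 RPKM in miR-23 Tg. In Ikzf2, Entpd1 and Capg the cluster Tg libraries stood above all miR-23 Tg and WT libraries, and for Ikzf2 and Capg miR-23 Tg was close to WT. Entpd1 averaged 0.0465 ± 0.0211 RPKM in WT, where all values lay below those of miR-23 Tg. Pdcd1, the inhibitory receptor PD-1, had 17.5, 14.4 and 13.8 in cluster Tg, against 1.08, 1.89 and 2.04 RPKM in miR-23 Tg (log2 difference 2.61, SE 0.17, adjusted p = 0.00125). Lag3, another inhibitory receptor, had 14.3, 13.7 and 11.4 in cluster Tg, against 2.25, 2.599 and 2.22 RPKM in miR-23 Tg (log2 difference 2.07, SE 0.11, adjusted p = 0.000676). Each cluster Tg library exceeded every miR-23 Tg and WT library for both. Of the follicular list, the secreted Angptl2 averaged 6.78 ± 0.336 RPKM in cluster Tg and 0.4096 ± 0.226 RPKM in miR-23 Tg. The transcription factor Maf averaged 13.6 ± 0.837 RPKM in cluster Tg and 3.47 ± 1.32 RPKM in miR-23 Tg. Tox2 averaged 3.55 ± 1.03 RPKM in cluster Tg and 0.433 ± 0.232 RPKM in miR-23 Tg. Cluster Tg did not overlap miR-23 Tg or WT in these 3 genes. Against miR-23 Tg alone, 23.9% of all genes tested were above in cluster Tg without overlap. Among 25 co-stimulatory and inhibitory receptors and ligands 12 were higher and 1 lower (48.0% and 4%, median 0.55), with 8 higher without cluster Tg replicates 1 or 3, including the TNF family ligands Tnfsf14 (1.62) and Tnfsf11 (1.55) on the log2 scale. In bulk libraries more cells of a type and more RNA per cell cannot be told apart.

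Receptors for chemokines and cytokines were mixed, with more called higher than lower. Of 24 chemokine receptors and homing genes 12 were higher and 1 lower (50% and 4.17%, against 13.5% and 11.3% over all genes, median 0.56), a count of higher genes that was 6 without miR-23 Tg column 3 and 7 without column 4, and 8 without cluster Tg replicate 2. Cxcr5, which leads cells to B cell follicles, had 9.598, 9.83 and 10.5 in cluster Tg, against 3.31, 2.27 and 2.28 RPKM in miR-23 Tg (log2 difference 1.61, SE 0.13, adjusted p = 0.0017). Of 38 cytokine receptor and JAK-STAT genes 12 were higher and 4 lower (31.6% and 10.5%, against 13.5% and 11.3%, median 0.10). The counts were 6 higher and 0 lower without miR-23 Tg column 4 (limma, 5 lower at an unadjusted p under 0.05), 7 and 1 without column 3, and 7 and 2 without cluster Tg replicate 1. Without cluster Tg replicate 2 they were 9 and 2. Il10ra, the interleukin-10 receptor, had 39.8, 30.3 and 28.5 in cluster Tg, against 8.32, 9.33 and 9.44 RPKM in miR-23 Tg (log2 difference 1.74, SE 0.13, adjusted p = 0.00159). Il9r averaged 3.43 ± 0.911 RPKM in cluster Tg and 0.361 ± 0.0845 RPKM in miR-23 Tg. Cxcr5, Il10ra and Il9r were above WT as well in every cluster Tg library. Cytotoxic granule genes split, with 5 higher and 3 lower of 14 (35.7% and 21.4%), and 3 higher without cluster Tg replicates 1 or 3 or miR-23 Tg columns 3 or 4. The lower count was 1 without cluster Tg replicates 2 or 3 or columns 3 or 4, and 2 without cluster Tg replicate 1. Nkg7 had 49.2, 29.8 and 15.8 in cluster Tg, against 2.604, 3.56 and 3.798 RPKM in miR-23 Tg. Gzma averaged 1.796 ± 0.286 RPKM in cluster Tg and 0.431 ± 0.131 RPKM in miR-23 Tg, and its cluster Tg values overlapped those of WT. Tetraspanins had 5 higher and 2 lower of 14 (35.7% and 14.3%, median 0.15), with 2 higher without miR-23 Tg columns 3 or 4 and 1 lower in each fit that left out 1 library. Cd9 had 109, 97.2 and 114 in cluster Tg, against 55.5, 51.8 and 49.9 RPKM in miR-23 Tg (log2 difference 1.01, SE 0.086, adjusted p = 0.00187). Tspan9 had 1.403, 1.88 and 2.55 in cluster Tg, against 9.87, 10.1 and 10.3 RPKM in miR-23 Tg (log2 difference -1.93, SE 0.15, adjusted p = 0.00156). Cd9 and Tspan9 thus moved in opposite directions. Tspan31 rose (1.04 on the log2 scale), as did Cd151 (0.61), whose call was lost in each of the 6 fits that left out 1 library. Regulators of G protein signalling had 1 higher and 2 lower of 9 (11.1% and 22.2%, against 13.5% and 11.3% over all genes). Rgs3 averaged 20.98 ± 2.04 RPKM in cluster Tg and 12.2 ± 0.627 RPKM in miR-23 Tg. Rgs19 averaged 64.6 ± 6.06 RPKM in cluster Tg and 89.2 ± 10.5 RPKM in miR-23 Tg, a call lost in every fit that left out 1 library except the one without miR-23 Tg replicate 1 (adjusted p of up to 0.1099). Rgs11 had 2.02, 3.67 and 3.87 in cluster Tg, against 12.5, 12.6 and 12.5 RPKM in miR-23 Tg (log2 difference -1.73, SE 0.19, adjusted p = 0.00322).

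Markers of the sorted population were present in all 6 libraries. Cd3e of the T cell receptor complex had 298, 302 and 283 in cluster Tg, against 268, 352 and 345 RPKM in miR-23 Tg, a difference that did not pass the test (log2 difference -0.12, SE 0.13, adjusted p = 0.518). Cd4 had 552, 561 and 542 in cluster Tg, against 370.2, 410.04 and 404 RPKM in miR-23 Tg (log2 difference 0.48, SE 0.10, adjusted p = 0.0179). Cd44, a marker of antigen experience, had 24.7, 20.7 and 19.4 in cluster Tg, against 12.9, 15.6 and 15.9 RPKM in miR-23 Tg (log2 difference 0.51, SE 0.12, adjusted p = 0.0288). Il2ra, the CD25 chain that the sort excluded, had 2.24, 1.41 and 1.97 in cluster Tg, against 0.629, 0.838 and 0.965 RPKM in miR-23 Tg (log2 difference 0.66, SE 0.14, adjusted p = 0.0224). The calls of Cd4, Cd44 and Il2ra were lost in 3, 5 and 4 of the 6 fits that left out 1 library. Of 27 naive and quiescence genes 5 were higher and 7 lower (18.5% and 25.9%, against 13.5% and 11.3% over all genes, median -0.15). The lower count was 2 without cluster Tg replicate 1, 2 without miR-23 Tg column 3, 1 without column 4, 4 without cluster Tg replicates 2 or 3, and 2 in the fit of all 18 libraries. Ndrg1, an anergy-linked gene, had 32.5, 32.9 and 29.2 in cluster Tg, against 9.91, 13.3 and 13.9 RPKM in miR-23 Tg (log2 difference 1.29, SE 0.13, adjusted p = 0.00289). Slfn2, a quiescence gene, averaged 461 ± 50.9 RPKM in cluster Tg and 206 ± 15.4 RPKM in miR-23 Tg. Klf4, which holds T cells quiescent, had 9.79, 14.6 and 4.42 in cluster Tg, against 79.2, 40.2 and 45.5 RPKM in miR-23 Tg (log2 difference -2.46, SE 0.43, adjusted p = 0.0122). WT had 32.996, 28.2 and 9.15 RPKM. Klf2, a regulator of S1pr1, averaged 189.9 ± 68.7 RPKM in cluster Tg and 377 ± 41.9 RPKM in miR-23 Tg (log2 difference -1.04, SE 0.26, adjusted p = 0.0326). This was a call lost in 5 of the 6 fits that left out 1 library. T cell receptor complex and proximal signalling genes mostly stayed uncalled, with 2 higher and 5 lower of 42 (4.76% and 11.9%, against 13.5% and 11.3%, median 0.04). Without miR-23 Tg column 3 there was 1 lower, without column 4 there were 2 and without cluster Tg replicates 1, 2 or 3 there were 3. Quantile normalisation gave 8 higher, and the fit of 16 libraries 7 higher and 11 lower. Among them Cblb, a ubiquitin ligase that sets the activation threshold, had 31.3, 31.5 and 27.01 in cluster Tg, against 48.9, 49.4 and 44.3 RPKM in miR-23 Tg (log2 difference -0.65, SE 0.086, adjusted p = 0.00586), and here it was miR-23 Tg that stood apart from WT (its log2 difference from WT was -0.08 for cluster Tg but 0.57 for miR-23 Tg). The adaptor Pag1 was lower (log2 difference -0.42) and Cd2 higher (0.48), both with calls lost without single miR-23 Tg columns.

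Markers of other cells were low but not equal. The 13 tested B cell markers of 16 were all above 0 in log2 difference (median 0.71), yet 0 passed the test against miR-23 Tg (limma, 4 at an unadjusted p under 0.05). This rested on miR-23 Tg column 4. Without that column 2 were called higher, all 13 had an unadjusted p under 0.05 (limma) and the median was 0.98. Leaving out any other library gave 0 calls. Summed over the list they had 99.2 to 190.5 RPKM in cluster Tg, 34.0 to 125.2 in miR-23 Tg and 23.1 to 35.2 in WT. Of 8 CD8 T cell markers 4 were higher and 1 lower (50% and 12.5%, against 13.5% and 11.3% over all genes). Cd8a had 11.2, 6.99 and 3.29 in cluster Tg, against 0.258, 0.425 and 0.536 RPKM in miR-23 Tg (log2 difference 2.42, SE 0.36, adjusted p = 0.00821). Cd8b1 had 39.1, 31.6 and 29.4 in cluster Tg, against 7.69, 11.8 and 11.5 RPKM in miR-23 Tg (log2 difference 1.61, SE 0.18, adjusted p = 0.00351), well under Cd4 in each library. The list summed to 122 to 182, 95.4 to 105 and 122 to 152 RPKM in cluster Tg, miR-23 Tg and WT. Of 7 tested myeloid markers of 13, 2 were higher and 0 lower, beside 13.5% and 11.3% over all genes. Itgam, the integrin CD11b, had 16.7, 10.1 and 9.69 in cluster Tg, against 1.17, 1.17 and 0.964 RPKM in miR-23 Tg (log2 difference 2.61, SE 0.20, adjusted p = 0.00161). Ccr2 averaged 2.98 ± 2.35 RPKM in cluster Tg and 0.197 ± 0.101 RPKM in miR-23 Tg, a call lost in 4 of the 6 fits that left out 1 library (adjusted p of up to 0.0782). The list summed to 198 to 240.5, 175 to 201 and 210.04 to 223 RPKM. The macrophage markers Csf1r, Cd14 and Emr1 stayed under 1 RPKM in all 6 libraries. Only 3 of 9 NK cell markers were tested, of which Klrb1f was higher (log2 difference 2.17, SE 0.22, adjusted p = 0.00268), and Ncr1, which defines NK cells, stayed under 1 RPKM. Of 2 tested dendritic cell markers Bst2, which interferon also raises, was higher (log2 difference 0.39) with a call lost in 5 of those 6 fits, and Itgax, Flt3 and Zbtb46 stayed under 1 RPKM. None of the 12 neutrophil markers in the table reached the filter, and their sum was at most 6.54 RPKM in any of these libraries. Of 2 tested erythroid and platelet markers 0 were called (limma, 0 at an unadjusted p under 0.05), and Pf4 and Ppbp were at 0 RPKM. Thymocyte markers had 6 higher and 1 lower of 10, beside 13.5% and 11.3% over all genes (4 higher without miR-23 Tg column 4). The list shares Cd8a, Cd8b1, Ikzf2 and Cd1d1 with other lists, so it is not a separate count. Its member Dntt, the terminal transferase of immature cells, had 24.9, 17.8 and 18.6 in cluster Tg, against 3.72, 4.63 and 4.66 RPKM in miR-23 Tg (log2 difference 1.99, SE 0.15, adjusted p = 0.00149). Rag1 and Ptcra, which mark thymocytes, stayed under 1 RPKM and Rag2 was at 0. Of the unconventional T cell markers 1 was tested, Cd1d1, and it was higher (log2 difference 0.51) with a call lost in 3 of the 6 fits. Of 6 tested replication-dependent histone genes 0 were called (limma, 0 at an unadjusted p under 0.05). The part of other cells in the higher effector, interferon and receptor genes was not tested.

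Cell cycle genes were higher in part. Of 39 DNA replication and mitosis genes 16 were higher and 2 lower (41.0% and 5.13%, against 13.5% and 11.3% over all genes, median 0.25). The count of higher genes was 10 without cluster Tg replicate 1 and without miR-23 Tg column 4. Among the 20 genes with a mean of at least 5 RPKM it was 5, with 2 lower and a median of -0.05. Quantile normalisation gave 14 higher and 5 lower. E2f2, an E2F transcription factor, had 18.6, 16.7 and 17.1 in cluster Tg, against 4.52, 6.098 and 4.45 RPKM in miR-23 Tg (log2 difference 1.62, SE 0.12, adjusted p = 0.00154). Mki67, the proliferation antigen, had 8.23, 5.77 and 7.21 in cluster Tg, against 1.72, 2.16 and 1.78 RPKM in miR-23 Tg (log2 difference 1.47, SE 0.14, adjusted p = 0.00223). Rrm2 averaged 8.67 ± 2.12 RPKM in cluster Tg and 3.17 ± 0.104 RPKM in miR-23 Tg. WT replicate 2 reached 5.42 RPKM of Mki67, so WT was spread over much of the gap. Birc5 (log2 difference 1.23) lost its call in 4 of the 6 fits that left out 1 library. Of 22 cholesterol synthesis genes 7 were higher and 1 lower (31.8% and 4.55%, median 0.28), with 1 to 5 higher when a library was left out. Fdps averaged 18.1 ± 3.09 RPKM in cluster Tg and 10.6 ± 0.554 RPKM in miR-23 Tg (log2 difference 0.72, SE 0.12, adjusted p = 0.0117), and Sqle (log2 difference 0.79), Fdft1 (0.58) and Mvk (0.51) were higher with calls that were lost without miR-23 Tg column 4. Glycolysis (2 higher and 1 lower of 23) and respiratory chain genes (2 higher and 1 lower of 59) stayed below the background share. Pdk1, the kinase that keeps pyruvate from the mitochondrion, was the lower glycolysis gene, with 42.1, 51.9 and 51.9 in cluster Tg, against 96.3, 107 and 109 RPKM in miR-23 Tg (log2 difference -1.08, SE 0.10, adjusted p = 0.00241). The glycolytic enzyme Aldoc averaged 4.76 ± 0.555 RPKM in cluster Tg and 1.35 ± 0.187 RPKM in miR-23 Tg. Ldhb averaged 34.2 ± 2.55 RPKM in cluster Tg and 20.1 ± 0.957 RPKM in miR-23 Tg. The respiratory chain calls (Ndufa3 -0.79, Atp5g1 0.48, Uqcr11 0.41, log2) were each lost without miR-23 Tg column 3 and without column 4.

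Among the genes lowest in cluster Tg, several belong to the immediate early response, which T cell receptor signals start within minutes. Fosb, an AP-1 subunit, had 93.3, 106 and 17.4 in cluster Tg, against 525, 290.5 and 315 RPKM in miR-23 Tg, with 211, 212 and 61.4 RPKM in WT (log2 difference -2.68, SE 0.69, adjusted p = 0.0361). Maff had 19.3, 19.1 and 3.59 in cluster Tg, against 141, 48.5 and 51.98 RPKM in miR-23 Tg (log2 difference -2.55, SE 0.69, adjusted p = 0.0421). Tnfaip3, the NF-kB brake A20, had 431, 399 and 119.8 in cluster Tg, against 1107, 831 and 920.4 RPKM in miR-23 Tg (log2 difference -1.78, SE 0.49, adjusted p = 0.0441). For all 3, replicate 3 was the lowest library within cluster Tg, within WT and within DKO. Among the WT libraries only replicate 3 (61.4, 4.75 and 286 RPKM) reached down to cluster Tg levels. DKO replicate 3 had 79.9, 8.77 and 243 RPKM. In miR-24 Tg replicate 1 was the lowest for all 3, and in miR-27 Tg replicate 3 was for Fosb and Tnfaip3 but not Maff. No miR-23 Tg column carries a replicate 3 header. The 3 calls were lost in 4 to 6 of the 6 fits that left out 1 library. Cd69, an early activation marker, was steadier, with 207, 172 and 130.1 in cluster Tg, against 479.6, 448 and 494 RPKM in miR-23 Tg (log2 difference -1.5, SE 0.17, adjusted p = 0.00386). Its WT libraries had 216, 220.1 and 169.7 RPKM, and cluster Tg did not pass the test against them (log2 difference -0.26, adjusted p = 0.298), while miR-23 Tg did (1.24, adjusted p = 0.0259). Over the immediate early and T cell receptor response list, 5 of 37 were lower and 0 higher (13.5% against 11.3% over all genes, median -0.26). This share is near that of all genes, and at an unadjusted p under 0.05 (limma) 8 were lower and 4 higher. The count of lower genes fell to 1 without cluster Tg replicate 1 and without miR-23 Tg column 4. Jund averaged 145 ± 80.2 RPKM in cluster Tg and 381 ± 117 RPKM in miR-23 Tg. Jun averaged 209.7 ± 58.4 RPKM in cluster Tg and 418 ± 47.5 RPKM in miR-23 Tg, a call lost without cluster Tg replicate 1 and without miR-23 Tg column 4. Both are AP-1 subunits like Fosb. No cluster Tg value reached a miR-23 Tg value, which for Jund was a condition of its pick. Klf6, a zinc finger factor, had 92.3, 99.5 and 49.6 in cluster Tg, against 357, 235 and 251 RPKM in miR-23 Tg (log2 difference -1.83, SE 0.30, adjusted p = 0.00973). Tagap, a GTPase-activating protein of T cells, had 42.7, 41.7 and 28.2 in cluster Tg, against 151, 89.1 and 101 RPKM in miR-23 Tg (log2 difference -1.56, SE 0.24, adjusted p = 0.00893). Klf6 and Tagap, like Jund, were picked among genes whose groups did not overlap, so their separation adds nothing. Dissociation and heat stress genes had 5 lower and 0 higher of 15 (33.3% lower against 11.3% over all genes, median -0.54), with 2 lower without cluster Tg replicate 1 and without miR-23 Tg column 4. Hsph1 had 42.7, 42.4 and 39.7 in cluster Tg, against 119.6, 76.1 and 78.7 RPKM in miR-23 Tg (log2 difference -1.09, SE 0.18, adjusted p = 0.00973). Hspd1 averaged 22.98 ± 2.88 RPKM in cluster Tg and 35.5 ± 2.55 RPKM in miR-23 Tg. Hsp90ab1 had 661, 643 and 632 in cluster Tg, against 1436, 899 and 934 RPKM in miR-23 Tg, where miR-23 Tg replicate 1 carried the highest value, and its call was lost in 5 of the 6 fits. The summed RPKM of the list was 1882 to 2380 in cluster Tg, 2940 to 3862 in miR-23 Tg and 2709 to 3204 in WT, and its part in the lower immediate early genes was not tested.

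Other genes among the 15 lowest separated cluster Tg from WT as well as from miR-23 Tg. Rhob, a small GTPase of endosomes, had 2.32, 3.59 and 2.85 in cluster Tg, against 24.8, 21.6 and 20.4 RPKM in miR-23 Tg (log2 difference -2.58, SE 0.14, adjusted p = 0.000763), with 19.1, 17.1 and 11.03 RPKM in WT. Tmsb10, an actin monomer-binding thymosin, had 83.2, 129.6 and 157 in cluster Tg, against 392, 379.6 and 408 RPKM in miR-23 Tg (log2 difference -1.71, SE 0.23, adjusted p = 0.0057), with 391, 361 and 439 RPKM in WT. Fam46a had 0.559, 1.53 and 1.93 in cluster Tg, against 6.07, 8.29 and 7.16 RPKM in miR-23 Tg (log2 difference -1.85, SE 0.25, adjusted p = 0.00593). Gm13546 averaged 1.49 ± 0.652 RPKM in cluster Tg and 6.28 ± 1.11 RPKM in miR-23 Tg. Cluster Tg was below every miR-23 Tg and WT library in these 4 genes. Zbtb10, a zinc finger gene, averaged 0.846 ± 0.212 RPKM in cluster Tg and 10.2 ± 10.4 RPKM in miR-23 Tg, an average that miR-23 Tg replicate 1 at 22.2 RPKM sets. Of the 15 lowest genes, 10 stayed called in each fit that left out 1 library, and Fosb, Maff, Zbtb10, Tnfaip3 and Jund did not.

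Ribosomal protein genes leaned downward. Of 49, 44 had a negative log2 difference, 10 were called lower and 0 higher (20.4% against 11.3% over all genes), and the median was -0.49. Rps20 had 484, 691 and 788 in cluster Tg, against 1519, 1152 and 1143 RPKM in miR-23 Tg (log2 difference -0.97, SE 0.23, adjusted p = 0.0283), and Rpl13, Rpl23 and Rps24 had log2 differences of -0.68, -0.64 and -0.64. Each of these 4 calls was lost in 4 or 5 of the 6 fits that left out 1 library. The 49 genes summed to 18221 to 27501 RPKM in cluster Tg, 31927 to 37621 in miR-23 Tg and 38033 to 40298 in WT. Their count of calls was not stable, with 0 without cluster Tg replicate 2 and without miR-23 Tg columns 3 or 4 (limma, 18 to 20 at an unadjusted p under 0.05), 2 without cluster Tg replicate 1 or miR-23 Tg replicate 1, 19 without cluster Tg replicate 3, and 29 in a fit of 16 libraries. The fit of all 18 libraries gave 0 (limma, 2 lower at an unadjusted p under 0.05). With columns 3 and 4 averaged it was 0 as well (limma, 20 lower at an unadjusted p under 0.05). Ribosomal protein genes have many pseudogenes, and how reads shared with them were counted is unknown here. MicroRNA processing and silencing genes had 2 higher and 0 lower of 19 (10.5% against 13.5%). Prkra averaged 4.17 ± 0.5697 RPKM in cluster Tg and 2.14 ± 0.209 RPKM in miR-23 Tg, and Dgcr8 (log2 difference 0.40) lost its call in 5 of the 6 fits that left out 1 library.

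In the TGF-beta signalling list 6 of 18 were lower and 2 higher (33.3% lower against 11.3% over all genes, median -0.34), with 2 lower without miR-23 Tg column 4, 4 without cluster Tg replicates 1 or 2 or column 3, and 0 in the fit of all 18 libraries (limma, 5 at an unadjusted p under 0.05). The co-receptor Tgfbr3 had 22.2, 23.4 and 20.7 in cluster Tg, against 35.8, 32.1 and 30.4 RPKM in miR-23 Tg (log2 difference -0.55, SE 0.086, adjusted p = 0.0091). Id2 and Id3, inhibitors of E proteins that TGF-beta family signals regulate, were the 2 higher members, and the call of Id2 was lost in 4 of the 6 fits that left out 1 library (adjusted p of up to 0.0863). Id2 averaged 174 ± 42.1 RPKM in cluster Tg and 95.3 ± 14.5 RPKM in miR-23 Tg. Id3 averaged 78.3 ± 8.41 RPKM in cluster Tg and 34.7 ± 5.702 RPKM in miR-23 Tg. For both, every cluster Tg library lay above every miR-23 Tg and WT library. Among apoptosis regulators 5 of 29 were lower and 3 higher (17.2% and 10.3%, against 11.3% and 13.5% over all genes, median -0.09). The lower count was 3 in 5 of the 6 fits that left out 1 library and 7 without miR-23 Tg replicate 1. The BH3-only gene Bbc3 (Puma) had 25.5, 29.99 and 17.1 in cluster Tg, against 66.8, 52.8 and 69.3 RPKM in miR-23 Tg (log2 difference -1.37, SE 0.21, adjusted p = 0.00899). WT had 31.2, 24.2 and 34.4 RPKM and miR-23 Tg lay above both. Cluster Tg and WT overlapped for Bbc3. Ppif, the mitochondrial cyclophilin D, had 12.2, 12.5 and 8.95 in cluster Tg, against 22.8, 19.1 and 19.6 RPKM in miR-23 Tg (log2 difference -0.83, SE 0.14, adjusted p = 0.0111). Bcl2a1d, which has near-identical neighbours that may share its reads, averaged 2.25 ± 0.5095 RPKM in cluster Tg and 0.826 ± 0.105 RPKM in miR-23 Tg.

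**Figure D4:**
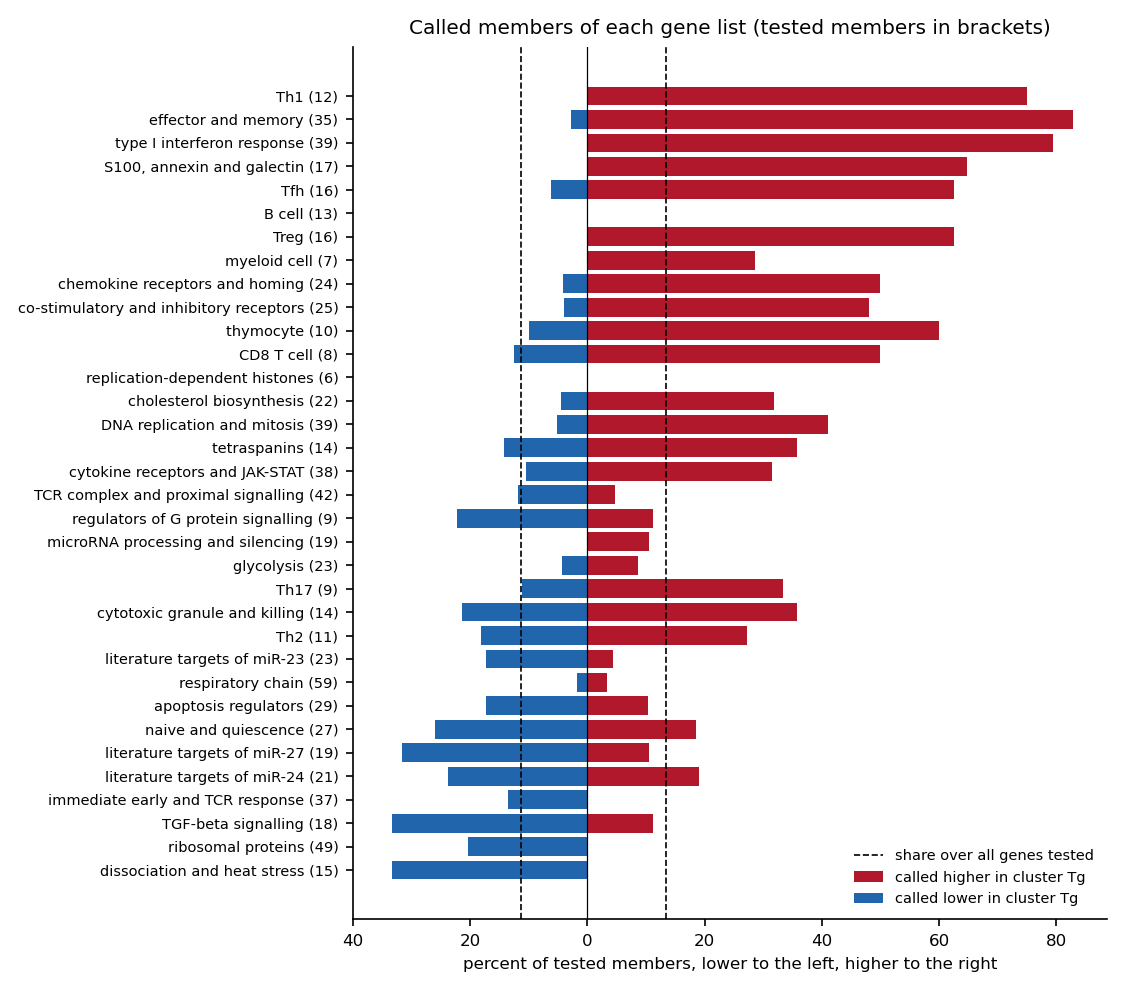
Percent of the tested members of each gene list with at least 5 tested members that were called higher (right) or lower (left) in cluster Tg against miR-23 Tg, ordered by the median log2 difference; dashed lines mark 13.5% and 11.3% over all genes tested. The effector and memory, Th1 and interferon lists reach furthest right, and the heat stress and TGF-beta lists furthest left.

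Genes that the literature gives as targets of the 2 added families were examined next. Of 21 tested literature targets of miR-24, 5 were lower and 4 higher (23.8% and 19.0%, against 11.3% and 13.5% over all genes), with a median of -0.21. Of 19 tested targets of miR-27, 6 were lower and 2 higher (31.6% and 10.5%), with a median of -0.20. Of 23 targets of miR-23, which both groups over-express, 4 were lower and 1 higher (17.4% and 4.35%), with a median of -0.04. Without 1 library the lower miR-27 targets numbered 1 to 5, the lower miR-24 targets 3 to 5 and the lower miR-23 targets 1 or 2.

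Among the miR-24 targets, H2afx, the histone variant of DNA damage foci, had 8.25, 15.4 and 11.8 in cluster Tg, against 30.7, 25.5 and 25.9 RPKM in miR-23 Tg (log2 difference -1.18, SE 0.21, adjusted p = 0.0126). Mapk14, the p38 alpha kinase, had 53.4, 59.9 and 54.4 in cluster Tg, against 86.8, 84.99 and 86.3 RPKM in miR-23 Tg (log2 difference -0.62, SE 0.069, adjusted p = 0.00342). Acvr1b, an activin receptor, had 15.4, 18.2 and 19.8 in cluster Tg, against 25.3, 27.2 and 27.7 RPKM in miR-23 Tg (log2 difference -0.57, SE 0.10, adjusted p = 0.0133), a call lost without miR-23 Tg column 4. Nlk, a MAP kinase-like kinase, had 13.4, 17.9 and 18.1 in cluster Tg, against 30.8, 32.4 and 33.2 RPKM in miR-23 Tg (log2 difference -0.93, SE 0.12, adjusted p = 0.00564), and Cdc25a (log2 difference -0.49) was lower with a call lost in 4 of the 6 fits that left out 1 library. The higher miR-24 targets were Ifng, E2f2, Ccna2 (averaging 3.81 ± 0.811 RPKM in cluster Tg and 1.21 ± 0.0612 RPKM in miR-23 Tg) and Cdk4, which lost its call in all 6 of those fits. In miR-24 Tg, which these tests did not use, all 5 lower targets lay below WT in every library. H2afx averaged 10.04 ± 2.03 RPKM in miR-24 Tg, against 23.7 ± 1.89 RPKM in WT. Nlk averaged 16.7 ± 0.705 RPKM, against 29.9 ± 2.58 RPKM in WT. Acvr1b averaged 15.8 ± 1.06 RPKM, against 26.7 ± 2.92 RPKM in WT. In these 3 the miR-24 Tg values lay close to those of cluster Tg. Mapk14 averaged 65.6 ± 0.724 RPKM, against 83.01 ± 4.45 RPKM in WT. Cdc25a averaged 6.66 ± 0.253 RPKM, against 9.06 ± 0.7597 RPKM in WT. Of the higher targets, Ifng lay above WT in every miR-24 Tg library, with 4.02, 11.1 and 3.96 RPKM, against 0.483, 0.742 and 0.626 RPKM. E2f2 averaged 7.81 ± 0.704 RPKM in miR-24 Tg, against 9.03 ± 1.68 RPKM in WT, and the libraries overlapped. Values of Ccna2 and Cdk4 in miR-24 Tg are not given here. Among the miR-27 targets, Pdk1 is given above. Tgfbr1, the type I TGF-beta receptor, had 11.6, 10.2 and 11.4 in cluster Tg, against 15.8, 14.6 and 15.1 RPKM in miR-23 Tg (log2 difference -0.42, SE 0.076, adjusted p = 0.0134). The adaptor Grb2 had 57.01, 61.3 and 58.4 in cluster Tg, against 72.1, 79.9 and 79.9 RPKM in miR-23 Tg (log2 difference -0.39, SE 0.072, adjusted p = 0.0147). For Tgfbr1 the WT libraries had 9.87, 11.7 and 11.5 RPKM, close to cluster Tg, and it was miR-23 Tg that lay above. Acvr2a (log2 difference -0.56), Phb (-0.56) and Map2k4 (-0.29) were lower with calls lost in 5 or 6 of the 6 fits that left out 1 library, as the calls of Grb2 and Tgfbr1 were without column 4. In miR-27 Tg, which these tests did not use, Pdk1 had 40.1, 32.5 and 26.8 RPKM, against 99.2, 94.6 and 94.5 RPKM in WT. Tgfbr1 had 8.56, 9.74 and 5.24 RPKM and Map2k4 18.4, 17.5 and 11.8 RPKM in miR-27 Tg, against 20.8, 19.6 and 20.3 RPKM of Map2k4 in WT. For Pdk1, Tgfbr1 and Map2k4 every miR-27 Tg library lay below every WT library. Grb2, Phb and Acvr2a did not separate in this way. Grb2 had 67.6, 65.1 and 85.7 RPKM in miR-27 Tg, against 73.6, 75.98 and 69.5 RPKM in WT. Phb had 7.15, 6.21 and 26.2 RPKM in miR-27 Tg, against 9.39, 9.74 and 9.2996 RPKM in WT. Acvr2a had 2.19, 1.71 and 0.483 RPKM in miR-27 Tg, against 2.48, 2.701 and 1.88 RPKM in WT. In both Grb2 and Phb miR-27 Tg replicate 3, the library that stands apart, was the one above WT. Abca1, the cholesterol exporter, was higher, with 8.01, 9.71 and 9.35 in cluster Tg, against 4.93, 4.41 and 5.01 RPKM in miR-23 Tg (log2 difference 0.79, SE 0.10, adjusted p = 0.0045). Nfe2l2, the regulator of the antioxidant response, was higher as well, with 35.9, 36.1 and 41.2 in cluster Tg, against 20.3, 24.9 and 26.3 RPKM in miR-23 Tg (log2 difference 0.65, SE 0.11, adjusted p = 0.0125). In both, cluster Tg lay at WT levels (11.2, 5.74 and 6.204 RPKM and 37.7, 33.4 and 45.7 RPKM) or near them, and miR-23 Tg below. Of the miR-23 targets, Tnfaip3, Ppif, Tab3 (log2 difference -0.54) and Satb1 (-0.35) were lower and Mtss1 was higher. The calls of Tab3 and Satb1 were lost in 5 of the 6 fits that left out 1 library. Mtss1, a membrane-shaping adaptor, had 34.7, 33.4 and 28.7 in cluster Tg, against 21.2, 18.9 and 16.6 RPKM in miR-23 Tg (log2 difference 0.74, SE 0.12, adjusted p = 0.00893).

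The targets not called and reported here spanned log2 differences of -0.53 (Irf1) to 0.42 (Prdm1) for 15 of miR-23, -0.51 (Bcl2l11) to 0.08 (Gata3) for 11 of miR-24 and -0.89 (Rel) to 0.26 (Bax) for 11 of miR-27. Rel had 22.6, 20.3 and 14.1 in cluster Tg, against 78.02, 22.3 and 25.3 RPKM in miR-23 Tg, so the value rests on a single miR-23 Tg library. Uncalled as well were Tab2, Chuk, Smad3, Smad4, Smad5, Fas, Xiap, Pak2, Apaf1, Fbxo32, Il6ra, Notch2 and Tgfbr2 for miR-23, Furin, Cdkn1b, Myc, Notch1, Tcf7, Dnd1, Rap1b, Pak4 and Rasa1 for miR-24, and Bmi1, Runx1, Foxo1, Fbxw7, Apc, Ccng1 and Plk2, with Gata3 and Smad3, for miR-27. Under the filter and not tested were Met, Spry2 and Sema6d for miR-23, Il4, Chek1, Cdkn2a and Fgfr3 for miR-24, and Pparg, Spry2, Cyp1b1, Il10, Irs1, Egfr, Sfrp1 and Snap25 for miR-27.

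Seed matches in the 3′ UTRs are shown for called literature targets and for Tmsb10, one of the 15 lowest genes, lower ones first and then higher ones, as 30 bases of the sense strand from the GENCODE M21 transcripts on GRCm38, with the 7-base seed match in capitals. H2afx holds 2 miR-24 words (chr9:44335263-44335292 and chr9:44335944-44335973, plus strand), Mapk14 1 beside 2 for miR-27 (chr17:28746927-28746956, plus strand) and Acvr1b 2, of which the first is shown (chr15:101211291-101211320, plus strand). Tnfaip3 holds 1 word of each family, and its miR-27 and miR-24 words are shown (chr10:19002658-19002687 and chr10:19002386-19002415, minus strand). Tgfbr1 (chr4:47412324-47412353, plus strand), Grb2 (chr11:115644060-115644089, minus strand) and Tmsb10 (chr6:72957493-72957522, minus strand) hold 1 miR-27 word each.
H2afx, first miR-24 match: ccctcacagaaagagCTGAGCCacttcggg
H2afx, second miR-24 match: gaatccctgtctggaCTGAGCCtctggctt
Mapk14, miR-24 match: tcagctgctgacgttCTGAGCCaggcaagt
Acvr1b, miR-24 match: ttcccgtaggcagtcCTGAGCCacaccatc
Tnfaip3, miR-27 match: gccattcacagtggtACTGTGAtccagacc
Tnfaip3, miR-24 match: gactggcagcagttcCTGAGCCtggctgcc
Tgfbr1, miR-27 match: aaagtcctttttatcACTGTGAtcatattc
Grb2, miR-27 match: ggtaggtagtgattaACTGTGAataaacgt
Tmsb10, miR-27 match: cgagccacaagctgcACTGTGAaacccggg
Higher genes hold such words as well. Abca1 (chr4:53031470-53031499, minus strand), Nfe2l2 (chr2:75675887-75675916, minus strand) and E2f2 (chr4:136193706-136193735, plus strand) have 1 each, and Ifng has 2 for miR-27.
Abca1, miR-27 match: gtggaaaacttactaACTGTGAatatgaga
Nfe2l2, miR-27 match: ctgctaaaacttcctACTGTGAtgtgaaat
E2f2, miR-24 match: gatgtcttatctttcCTGAGCCtcccaatg
Of the lower literature targets, 3 of 5 for miR-24, 5 of 6 for miR-27 and 4 of 4 for miR-23 hold a word of their own family in the 3′ UTR used, as do 1 of 4, 2 of 2 and 1 of 1 of the higher ones. Over all tested members of these lists the counts were 13 of 21, 15 of 19 and 18 of 23. Nlk, Cdc25a and Pdk1 are lower without such a word in this window.

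Over all genes, words for the added families went with a small downward shift. A 3′ UTR was found for 9861 of the 10544 genes (93.5%), and 16.4%, 17.1% and 19.2% of them hold a word for miR-23, miR-27 and miR-24. The word of a family was searched on the sense strand of the longest 3′ UTR. Genes with a miR-27 word only (929) had a median log2 difference of -0.07, with 17.3% called lower and 12.8% higher. Genes with a miR-24 word only (1147) had a median of -0.04, with 14.9% lower and 10.99% higher, and genes with a miR-23 word only (884) likewise had -0.04, with 12.7% lower and 11.7% higher. Genes with none of the 3 words (5861) had 0.0042, with 9.04% lower and 15.03% higher. Genes with a word have longer 3′ UTRs (medians of 1762 to 1820 bases for the classes with 1 family only, against 724 with none), so the classes were also read within lengths. Above 1500 bases the lower share was 18.1% with a miR-27 word only, 14.5% with a miR-24 word only and 14.3% with a miR-23 word only, against 9.83% with none. At 500 to 1500 bases it was 17.1%, 15.1% and 9.57%, against 8.42%. At up to 500 bases it was 13.8%, 16.8% and 12.5%, against 9.21%, in classes of 72 to 101 genes with a word.

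Seen from the calls, 43.4% of the called lower genes with a 3′ UTR hold a miR-27 or miR-24 word, 27.2% of the called higher genes and 31.6% of all genes tested. The 3′ UTRs of these 3 sets have medians of 1358, 1116 and 1160 bases, and length was not matched here. Words of the shared miR-23 leaned the same way, in 219 of 1135 lower, 186 of 1351 higher and 1612 of all 9861 genes. None of the 14 highest genes with a 3′ UTR holds a miR-27 or miR-24 word, and their 3′ UTRs are short (median 280.5 bases). Of the 14 lowest genes 5 hold a miR-27 or miR-24 word: Fosb, Klf6, Tnfaip3, Tmsb10 and Tagap. A miR-23 word is held by 1 of the highest and 4 of the lowest genes. A word is a match of letters and not a site shown to be used.

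**Figure D5:**
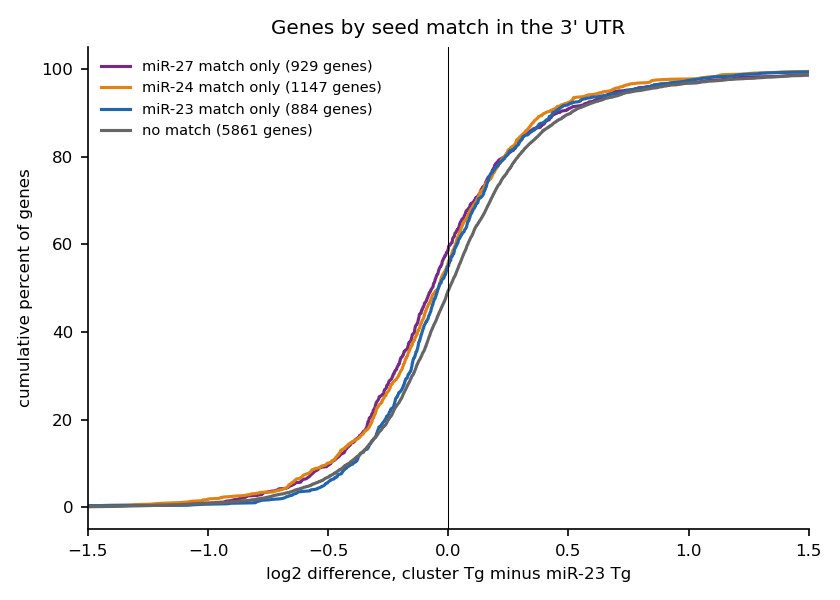
Cumulative percent of genes against the log2 difference (cluster Tg minus miR-23 Tg), for genes whose 3′ UTR holds a seed match of miR-27 only, miR-24 only or miR-23 only, and for genes with no match. Around 0 the curves with a match lie slightly to the left of the curve without, by less than 0.1 at the median, and below -0.3 the miR-23 curve joins the curve without a match.

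The genes that separate cluster Tg from miR-23 Tg were also looked at in libraries that the comparison did not use. Of the 1420 genes called higher in cluster Tg, 1225 were above WT in miR-24 Tg (86.3%, against 50.5% of all genes tested), with a median log2 difference of 0.28. In miR-27 Tg 1150 of them were above WT (81.0%, against 52.0%), with a median of 0.40, and without miR-27 Tg replicate 3, which stands apart from all other libraries, 1239 (87.3%, against 50.6%) with a median of 0.35. In DKO 598 were above WT (42.1%, against 52.6%) with a median of -0.03, and without DKO replicate 3, which also stands apart, 507 (35.7%, against 50.6%). Of the 1190 genes called lower, 246 were above WT in miR-24 Tg (20.7%, median -0.19), 315 in miR-27 Tg (26.5%, median -0.25) and 649 in DKO (54.5%, median 0.02). Without the libraries that stand apart these were 264 in miR-27 Tg (22.2%, against 50.6% of all genes) and 787 in DKO (66.1%, against 50.6%). These genotypes lie on the same sides of the divide on the second principal component as the 2 groups compared, so a shared preparation and a shared effect of the transgenes cannot be told apart. S100a6 averaged 45.9 ± 27.8 RPKM in miR-24 Tg, 87.8 ± 63.6 RPKM in miR-27 Tg and 3.25 ± 1.45 RPKM in DKO. Nrp1 averaged 13.3 ± 3.91 RPKM, 17.3 ± 8.55 RPKM and 1.12 ± 0.463 RPKM in the same genotypes. Rhob had 5.72, 44.5 and 6.87 RPKM in miR-24 Tg, where every library lay above cluster Tg and only replicate 2 lay above miR-23 Tg. In miR-27 Tg it had 4.35, 3.48 and 2.95 RPKM, close to cluster Tg. Tmsb10 had 258, 281 and 285 RPKM in miR-24 Tg, above cluster Tg and below WT, and 169, 166 and 871 RPKM in miR-27 Tg.

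Outside the protein-coding genes, 14 of 192 tested rows of other microRNA hairpins were higher and 1 lower (7.29% and 0.521%). Of 81 small nucleolar and Cajal body RNA rows 2 were higher and 2 lower. Both kinds of row stayed below the shares over all genes tested (13.5% higher and 11.3% lower). More hairpin rows had a value above 0 in cluster Tg (220 to 257 of 1067) than in miR-23 Tg (197 to 209), and the cluster Tg libraries were also deeper. The row 2010111I01Rik, the gene that hosts copy b of the cluster, had 61.3, 50.6 and 49.3 in cluster Tg, against 28.2, 24.2 and 24.2 RPKM in miR-23 Tg (log2 difference 1.04, SE 0.11, adjusted p = 0.00313). WT had 22.9, 32.4 and 19.99 RPKM.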

How the data were processed

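RNA of sorted naive CD4 T cells was sequenced from 6 genotypes with 3 libraries each. The deposited values are RPKM per gene, made by the authors, and the submitters' processing notes name STAR 2.2.0c, HOMER and build mm9 with no role. Gene models, strand use and read totals are not stated, so absolute depth and counting error are unknown. Column headers gave each library its genotype; 2 miR-23 Tg columns carry one header, and 0 columns of values were left unmapped. Of a symbol listed on more than 1 row the row with the highest mean was kept (23951 of 23953 rows).

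The 10544 genes that reached 1 RPKM in 3 or more of the 6 libraries were fitted on log2(RPKM + 1) with limma 3.58.1 (R 4.3.3, eBayes with a variance trend), and calls are Benjamini-Hochberg adjusted p under 0.05. A fold on this scale understates the change of low genes. WT was compared in a fit of 9 libraries. On simulated data the fit recovered 71% of 100 genes at an absolute log2 difference of 1 and 35% of 100 at 0.5, with 3 false calls. The simulated libraries were independent, while columns 3 and 4 lay closer together than any other pair of a genotype. These values therefore do not measure recovery or false calls in the data themselves. Named genes were the 15 highest and 15 lowest called genes whose groups did not overlap and whose higher group averaged at least 5 RPKM, without small RNAs, receptor segments, Xist, Y-linked genes and symbols turned into dates; up to 4 called members of each of 40 lists; all literature targets; and the hairpins, their host and sort genes. The members and lists were chosen with earlier results of these data known. A few genes the rule names are not reported here. Seed matches were read in the longest 3′ UTR of each gene (GENCODE M21, GRCm38). Alternatives were other pseudocounts, filters, scalings, fits of 18 and 16 libraries, and libraries left out.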

Additional observations from a re-analysis of the deposited data

How the results depend on the processing

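Of 137 named genes called in cluster Tg against miR-23 Tg (limma), 88 stayed called in each of the 6 fits that left out 1 library, 92 with columns 3 and 4 averaged, 89 in a fit of all 18 libraries, 129 in a fit of 16 libraries and 128 after quantile normalisation. The cause of the lost calls was not tested. The main count of 2610 genes (1420 higher, 1190 lower) was 996 to 2317 (662 to 1282 higher, 334 to 1035 lower) with 1 library left out, 1114 (692 higher, 422 lower) with all 18 libraries and 1139 (733 higher, 406 lower) with columns 3 and 4 averaged, an alternative chosen after seeing the data. In the fit of 16 libraries 1926 genes were lower, and with a mean of at least 5 RPKM, where fewer genes are tested, 871 were higher. Pseudocounts of 0.1 and 0.5 gave 2580 and 2596 genes, no filter 2394 and quantile normalisation 2575, with a smaller share of higher genes (47.88% against 54.41%). The called list members, 231 in all, numbered 128 with all 18 libraries, 129 with columns averaged, 101 at an absolute log2 difference of at least 1, and 128 to 218 with 1 library left out. The comparison cluster Tg vs WT gave 912 genes with all 18 libraries and 1614 to 3098 with 1 library left out. The comparison miR-23 Tg vs WT gave 5 genes with all 18 libraries and 6 to 127 with 1 library left out, against 167 in the fit of 9.

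The values that changed sign were all of genes not called. Under quantile normalisation the log2 differences were 0.11 for Tgfbr2, 0.0024 for Apc, -0.42 for Mir23a and 0.028 for Cd3e, and under median-ratio scaling 0.0055 for Notch2, 0.0028 for Tgfbr2 and 0.0072 for Apc. With columns averaged they were -0.020 for Smad3, 0.0021 for Notch2, -0.034 for Notch1 and 0.0086 for Tspan6. With 1 library left out they spanned -0.021 to 0.063 for Smad3, -0.016 to 0.14 for Il6ra, -0.055 to 0.057 for Notch2, -0.082 to 0.13 for Tgfbr2, -0.053 to 0.078 for Myc, -0.072 to 0.13 for Notch1, -0.043 to 0.27 for Gata3, -0.079 to 0.033 for Pak4, -0.069 to 0.069 for Apc, -0.17 to 0.0028 for Ccng1, -0.11 to 0.078 for Tspan6, -2.97 to 0.30 for Xist and -0.58 to 0.63 for Mir23a. No paired analysis was possible because 2 of the 3 miR-23 Tg columns carry the same replicate name.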
